A study of Sus scrofa with 63 samples.

Results

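Oxidative phosphorylation is the process by which the inner mitochondrial membrane turns the energy of reduced substrates into ATP. Complex I (NADH dehydrogenase) and complex II (succinate dehydrogenase) pass electrons to ubiquinone, complex III passes them on to cytochrome c and complex IV (cytochrome c oxidase) to oxygen, while complex V (ATP synthase) uses the proton gradient that complexes I, III and IV build. Most subunits are encoded in the nucleus and imported, a smaller core is encoded by mitochondrial DNA, which mammals inherit from the mother, and the intestinal epithelium is a tissue with a high demand for ATP. The genes described here were chosen by name from the array annotation: symbols of the NDUFA, NDUFB, NDUFC, NDUFS and NDUFV series, the SDH genes, the UQCR genes, CYC1, the COX subunits 4 to 8 that carry an isoform letter, and all symbols that begin with ATP5. The rule gave 206 probes of 72 genes (73 symbols, since COX6B and COX6B1 name 1 gene), of 60305 probes and 45221 genes in all, and it used no measured value.

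Expression was measured in the jejunum of male pig fetuses of 2 breeds, Large White (LW) and Meishan (MS), and of both crosses, 1 fetus per array, on one-colour Agilent porcine arrays. LWMS fetuses had an LW sire and an MS sow, and MSLW fetuses an MS sire and an LW sow. At day 90 of gestation the groups held 9 LW, 6 MS, 9 LWMS and 8 MSLW fetuses, and at day 110 they held 9, 7, 9 and 6 in the same order, all obtained by caesarean. Sows were inseminated with mixed semen, so that litters held both purebred and crossbred fetuses, which were picked for a weight near that of their litter's mean and for RNA quality. Litter membership did not enter the tests. Fetuses of 1 litter thus count as separate. For age, pure breeds and sow, which differ between litters, p-values may be too small. Sire breed varied within litters, and how its p-values are affected is not known.

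Levels are log2 signals minus the array's own 75th percentile, so that 75% of the probes of an array lie below 0. Differences are on the same log2 scale. Testing was limited to probes detected well above background in 75% or more of the fetuses of some group, and 203 of the 206 probes, with every one of the 72 genes among them, met this. The other 3 are 1 probe each of NDUFB5, NDUFS1 and COX7C, and other probes of these genes were tested. Of the 72 genes, 39 had several tested probes and 33 had 1, and a gene is represented by its brightest tested probe unless said otherwise. By the fixed grouping, 32 genes belong to complex I, 3 to complex II, 9 to complex III, 10 to complex IV, 5 to the F1 part of complex V and 10 to its stalk and membrane part, while COX7A2L, NDUFA4L2 and ATP5SL match the naming rule without being fixed subunits. No probe carried the names SDHC, COX6A2, COX8B or ATP5S.

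The signals of the jejunum were those of a mixed tissue. Of the 11 markers of enterocytes and epithelium on the array, EPCAM, CDH1, FABP1, LCT and ALPI were well above background on at least 30 of 31 arrays at day 110, whereas sucrase-isomaltase (SI) was so on 6 of 32 arrays at day 90 and 18 of 31 at day 110. The share of probes well above background ranged from 51.2 to 87.6% over the 63 arrays (median 66.7%). A total of 5 arrays stood apart in this share or in limma's array weight: fetus 484 (LW, day 90, weight 0.193), fetus 823 (LWMS, day 90, 87.6% of probes well above background), fetus 469 (LW, day 110, 51.2%), fetus 632 (MS, day 110, weight 0.15) and fetus 851 (MSLW, day 110, 80.4%). For each fetus the median deviation of the member probes from their means over all fetuses was taken as a shared shift. How closely the probes of 1 fetus followed it was not tested. Under 75th percentile scaling the shift ran from -0.64 in fetus 632 to +0.89 in fetus 484. With quantile normalization the span was -0.40 to +0.43. Centring on the median gave -1.30 in fetus 851 to +0.81 in fetus 508, and +0.12 in fetus 484. Which fetus was extreme thus depended on the scaling. Under 75th percentile scaling this shared shift had medians of -0.23, -0.01, -0.15 and -0.30 in LW, MS, LWMS and MSLW at day 90 and of -0.10, 0.04, 0.21 and 0.06 at day 110, and all 8 groups overlapped in it. The arrays also differed in brightness. Their 75th percentile in log2 signal ran from 8.55 in fetus 476 (shift +0.74) to 10.37 in fetus 449 (shift -0.30). It was 9.04 in fetus 484 and 9.02 in fetus 632, whose shifts were opposite. Whether the shared shift follows the brightness of the array was not tested, which also limits the differences between groups below. Results that rest on the 5 arrays that stood apart are given with and without them.

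**Figure D1:**
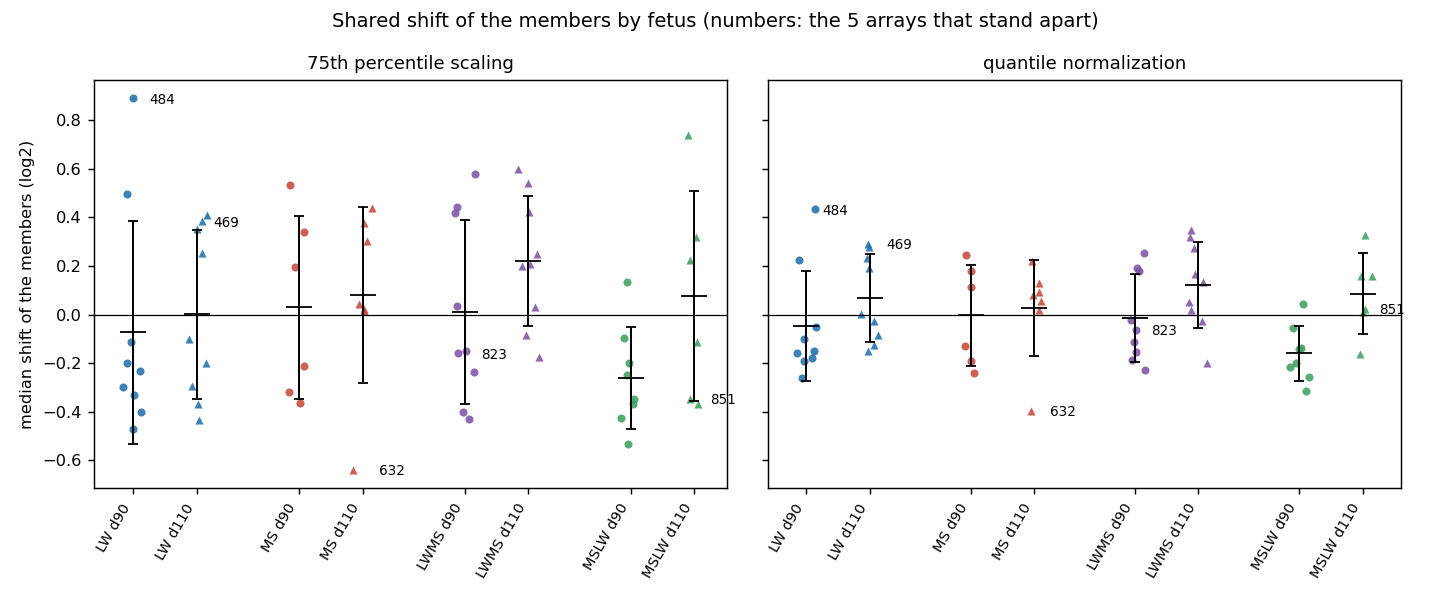
Median deviation of the 203 tested probes from their mean over all fetuses (log2, vertical axis), for each fetus by genotype and day of gestation, under 75th percentile scaling (left) and quantile normalization (right). Points are fetuses, circles at day 90 and triangles at day 110, bars are the mean ± SD, and numbers mark the 5 arrays that stand apart. Fetus 484 lies highest at +0.89 and fetus 632 lowest at -0.64 under the first scaling, and the spread is narrower under the second.

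With gestational age, the genes of oxidative phosphorylation moved mostly upward but by small amounts. Averaged over the 4 genotypes, the difference between day 110 and day 90 was positive for 179 of the 203 probes (88.2%), against 47.1% of all probes tested, and the median difference was +0.15 against -0.02. With limma and an adjusted p of at most 0.01, 21 probes were higher and 2 lower at day 110, so 23 of 203 probes (11.3%) were called, fewer than the 28.5% called among all 40515 probes tested (12.8% higher and 15.7% lower). The called probes belong to 15 genes. At an unadjusted p under 0.05 there were 79. The count depended on how arrays were scaled and weighted: it was 58 (28.6%, against 27.3% of all probes) with quantile normalization, 61 in the authors' processed matrix (30.3%, against 30.2%), 113 with array weights (55.7%, against 38.6%) and 53 without the 5 arrays that stood apart (26.1%, against 30.8%). Leaving out fetus 484 alone gave 43 and leaving out fetus 632 alone gave 40. Hence the share called was near or below the share of all probes under these settings other than array weights, while the median stayed positive, between 0.11 and 0.27. Of the 23 probes, 14 were called under all 9 alternatives other than a minimum fold. In bulk tissue, fewer cells of a type and less RNA per cell cannot be told apart.

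Markers of epithelial and other cell types also moved over the same interval. Of the 11 epithelial markers, 7 were called higher at day 110 and 1 lower, among them FABP1 (fatty acid binding, +2.55), ALPI (intestinal alkaline phosphatase, +2.47), LCT (lactase, +1.37), EPCAM (+0.44) and ANPEP (aminopeptidase N, -0.59). Their mean level ran from 2.84 to 3.96 over the day 90 groups and from 1.27 to 4.88 over the day 110 groups. All 3 erythroid markers were lower at day 110 (AHSP -1.80, HBB -1.68, HBE1 -1.07), as were 4 of 6 fibroblast markers (COL1A2 -0.74, DCN -0.49) and 6 of 8 genes of cell division (CCNB1 -0.54). The mean level of the erythroid list ran from -2.10 to 1.64 at day 90 and from -4.97 to -0.68 at day 110, that of the fibroblast list from 2.44 to 3.68 and from 1.91 to 4.00, and that of the cell division list from -0.32 to 0.82 and from -0.66 to 0.90. Of smooth muscle, skeletal muscle, neuron and glia, and endothelium markers, 1 of 6, 1 of 3, 2 of 6 and 0 of 5 were called, all lower, and of 5 macrophage markers 2 were higher and 1 lower. Over all tested probes of a list, 74.4% were called for epithelium, 100% for the erythroid list, 50% for fibroblasts and 57.1% for cell division. For smooth muscle, skeletal muscle, neuron and glia, endothelium and macrophages the shares were 54.2, 31, 30, 7.14 and 66.7%, against 28.5% of all probes tested. The part of these cell types in the changes of the members was not tested.

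Complex I had 6 of 32 genes called higher by their brightest probe and none lower, with a median difference of +0.15. Over all its probes 10 of 53 were called (18.9%, against 28.5% of all probes tested). NDUFS8, which holds iron-sulphur clusters of the electron path, ran from 3.86 through a median of 4.26 to 5.18 over the 32 fetuses of day 90 and from 4.36 through 4.82 to 5.47 over the 31 of day 110. It rose by 0.45 (SE 0.0848, adjusted p = 1.6e-05 with limma), and its mean was higher at day 110 within 8 of 8 slides. NDUFB9, an accessory subunit of the membrane arm, ran from 4.68 through 5.06 to 6.15 at day 90 and from 4.79 through 5.78 to 6.42 at day 110. Its rise was 0.46 (SE 0.101, adjusted p = 0.000197), and all 4 of its probes were called, with differences of 0.39 to 0.47. In both genes the day 110 median lay above the day 90 median, and the ranges overlapped.

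Among the other complex I genes, NDUFA13 (+0.36), NDUFS3 (+0.27) and NDUFS1 (+0.22) also rose. NDUFS1, NDUFS3 and NDUFS8 are 3 of the 6 tested genes of the catalytic core, and the other 3 did not pass. NDUFB1, a small accessory subunit, had the largest difference of the members (+0.58, SE 0.155, adjusted p = 0.00203) but was dim. Its level ran from -6.11 through -4.61 to -2.76 at day 90 and from -5.13 through -3.89 to -2.51 at day 110, and it was well above background on 22 of 32 and 27 of 31 arrays. Under the 10 alternatives it passed in 8. Probes disagreed for NDUFA6, of which a dim probe was called (+0.38, adjusted p = 0.00888) while the brightest was not (-0.02, adjusted p = 0.88).

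Complex II, which is also an enzyme of the citric acid cycle, had 0 of 3 genes called with limma, though 2 had an unadjusted p under 0.05. None of its 24 probes was called, against 28.5% of all probes tested. SDHA, the flavoprotein, ran from 5.45 through 5.92 to 6.62 at day 90 and from 5.44 through 6.20 to 6.74 at day 110. Its difference of +0.22 (SE 0.0785) had an adjusted p of 0.0188 with limma, and 3 of 10 alternatives put it past the threshold. SDHB, the iron-sulphur subunit, had a difference of +0.16 (adjusted p = 0.103), and SDHD, a membrane anchor, one of +0.11 (adjusted p = 0.427).

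Of complex III, 3 of 9 genes were called higher, and the differences of all 9 were positive (median +0.20). Over all its probes 3 of 20 were called (15%, against 28.5% of all probes tested). CYC1, cytochrome c1, ran from 3.83 through 4.37 to 5.10 at day 90 and from 4.01 through 4.85 to 5.22 at day 110, a rise of 0.34 (SE 0.0698, adjusted p = 8.88e-05 with limma). UQCRC1, a core protein, rose by 0.34 as well (SE 0.0981, adjusted p = 0.00447), from a median of 4.89 to one of 5.43. Both were higher at day 110 within 8 of 8 slides, with overlapping ranges. UQCRFS1, the Rieske iron-sulphur protein, was called (+0.44, adjusted p = 0.0064) from a dim probe with medians of -4.42 and -3.87, and passed in 7 of 10 alternatives.

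In complex IV, 2 of 10 genes were called, COX6B1 and COX5A. Over all its probes 4 of 42 were called (9.52%, against 28.5% of all probes tested). COX6B1, a subunit at the contact between the monomers of the dimer (annotated as COX6B or COX6B1), ran from 4.32 through 4.91 to 6.20 at day 90 and from 4.69 through 5.64 to 6.26 at day 110. Its brightest probe rose by 0.47 (SE 0.109, adjusted p = 0.000403 with limma) and 2 others by 0.47 and 0.54, while the dimmest probe differed by +0.18 (adjusted p = 0.19). COX5A ran from 3.35 through 4.19 to 5.54 and from 3.49 through 4.75 to 5.60, a rise of 0.45 (SE 0.121, adjusted p = 0.00185) that was seen within 7 of 8 slides. Subunits with a tissue form showed smaller differences: COX7A2, the common form, +0.32 (adjusted p = 0.0262), COX7A1, the heart and muscle form, +0.24 (adjusted p = 0.0747), and COX6A1, the common form of subunit 6A, +0.28 (adjusted p = 0.0552). None of these 3 passed, and 4, 1 and 3 of 10 alternatives respectively put them past the threshold.

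**Figure D2:**
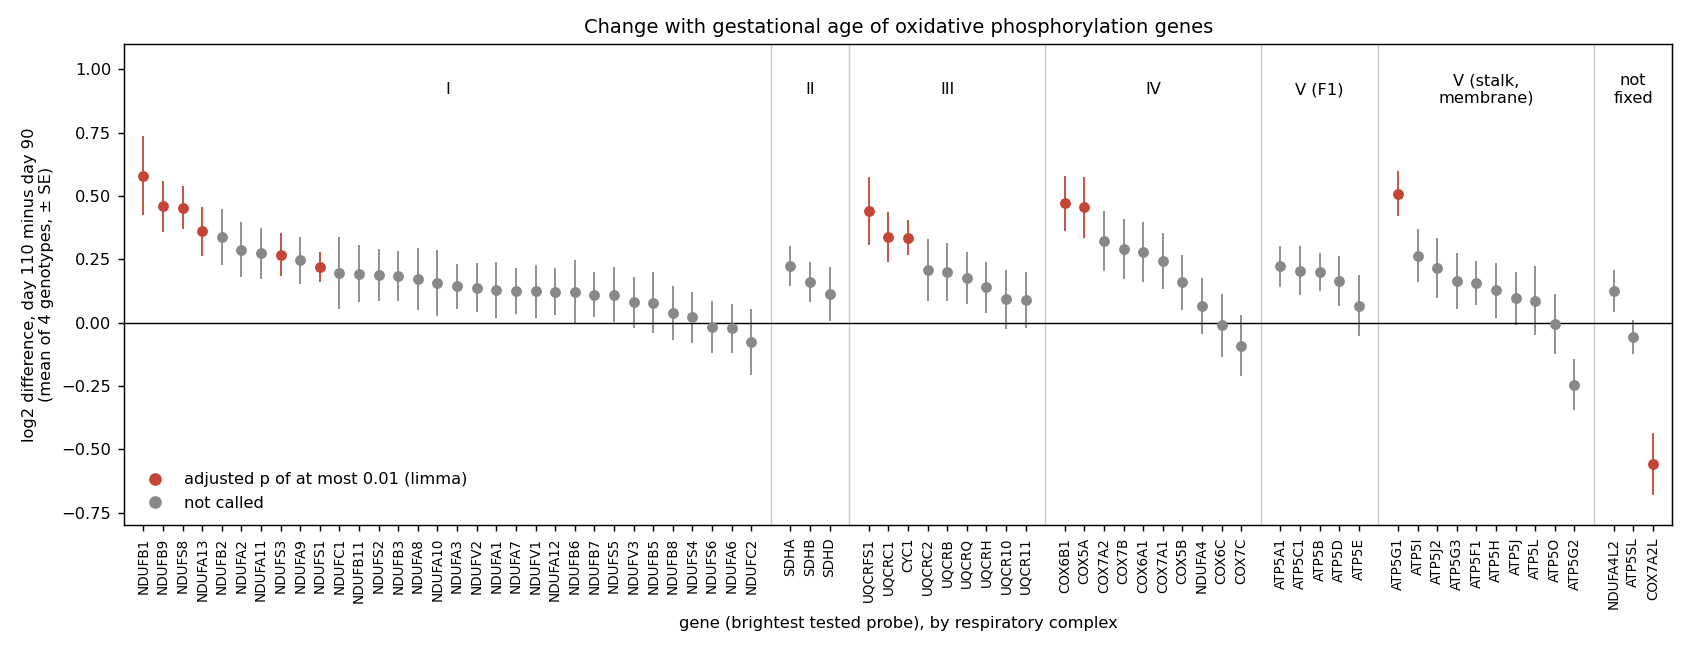
Log2 difference between day 110 and day 90, mean of the 4 genotypes ± SE (vertical axis), of the brightest tested probe of each of the 72 genes, grouped by respiratory complex (horizontal axis). Red points have a limma adjusted p of at most 0.01: 12 lie above 0 and 1, COX7A2L, below it at -0.56.

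In complex V, 10% of the F1 probes and 3.57% of the stalk and membrane probes were called, against 28.5% of all probes tested. By the brightest probe, 1 of its 15 genes was called, ATP5G1. This gene, ATP5G2 and ATP5G3 encode the same mature c-subunit of the membrane ring, with different targeting peptides. ATP5G1 ran from 5.38 through 5.72 to 6.77 at day 90 and from 5.73 through 6.47 to 6.85 at day 110, a rise of 0.51 (SE 0.0889, adjusted p = 4.99e-06 with limma) that passed under all 10 alternatives. ATP5G2 ran from 6.24 through 6.61 to 8.03 and from 5.90 through 6.61 to 7.27, with a difference of -0.25 (SE 0.101, adjusted p = 0.0451), and ATP5G3 had one of +0.17 (SE 0.11, adjusted p = 0.241). Neither passed, though ATP5G2 was called lower with quantile normalization (-0.21) and in the authors' matrix (-0.24, adjusted p = 0.000447), and 2 of 10 alternatives called ATP5G3. The ranges of the 2 ages overlapped in each of the 3 genes.

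Because a shift that 2 probes of 1 array share would cancel in their difference, ATP5G1 was also set against the other 2 genes within each array. This comparison was chosen after the values had been seen and is given as a description, and the size of the difference at 1 age has no meaning, since probes differ in brightness. ATP5G1 minus ATP5G2 was higher at day 110 in LW by 0.81, in MS by 0.58, in LWMS by 0.83 and in MSLW by 0.80. The ages did not overlap in any genotype: the highest day 90 and lowest day 110 values were -0.82 and -0.71 in LW, -0.53 and -0.52 in MS, -0.62 and -0.36 in LWMS and -0.77 and -0.42 in MSLW. For ATP5G1 minus ATP5G3 the changes were 0.31, 0.35, 0.36 and 0.35 in LW, MS, LWMS and MSLW, and the ages overlapped in each. The probes of ATP5G1 and of a second ATP5G2 probe (difference with age -0.20, adjusted p = 0.0617) both span the stop codon, and are shown because they are alike before it and unlike after it. Capitals mark bases that are equal at the same distance from the stop codon.
ATP5G1 (A_72_P177586): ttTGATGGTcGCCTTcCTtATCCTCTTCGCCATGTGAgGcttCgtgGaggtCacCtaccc
ATP5G2 (O6026): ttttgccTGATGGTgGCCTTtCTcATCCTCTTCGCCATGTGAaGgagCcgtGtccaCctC
Of the 34 bases compared before the stop codon 29 were equal, and of the 18 compared after it 5 were.

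**Figure D3:**
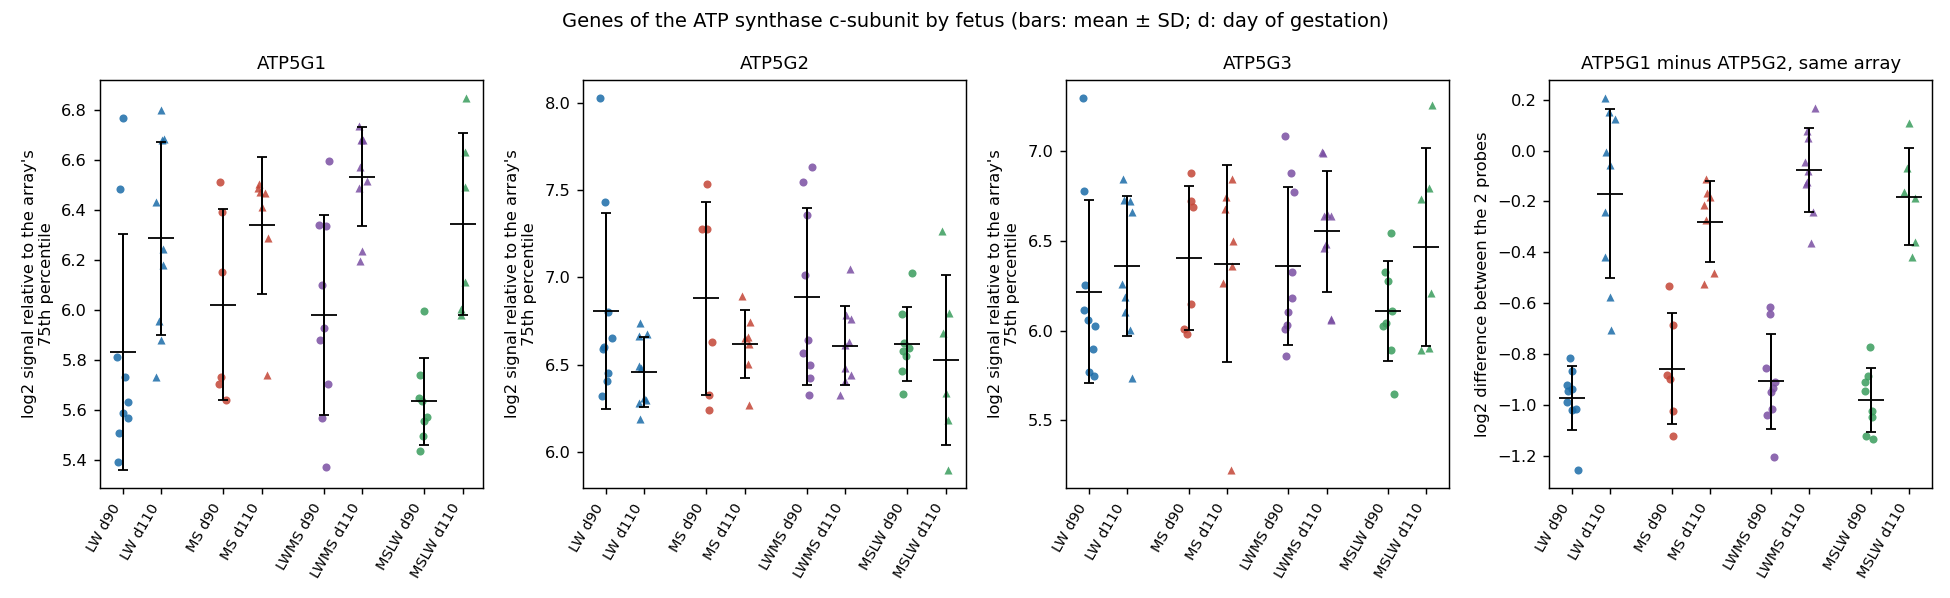
Levels of ATP5G1, ATP5G2 and ATP5G3 (log2 signal relative to the array's 75th percentile) and the difference of ATP5G1 and ATP5G2 on the same array (log2), by genotype and day of gestation. Points are fetuses, circles at day 90 and triangles at day 110, and bars are the mean ± SD. In the right panel every day 110 fetus of a genotype lies above every day 90 fetus of it.

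The F1 part of complex V, which carries the catalytic sites, had 0 of 5 genes called by the brightest probe with limma, and 3 with an unadjusted p under 0.05. ATP5A1, the alpha subunit, had 3 of 15 probes that rose, by 0.28 to 0.29, while its brightest differed by +0.22 (adjusted p = 0.0266). COX7A2L, which takes part in the assembly of respiratory supercomplexes, was the only member called lower under 75th percentile scaling, whereas 4 probes were so with quantile normalization and in the authors' matrix. It ran from 4.12 through 4.98 to 6.19 at day 90 and from 3.11 through 4.48 to 5.22 at day 110. Both of its probes fell by 0.56 (brightest: SE 0.122, adjusted p = 0.000176 with limma), it was lower at day 110 within 8 of 8 slides, and it passed under all 10 alternatives. The changes of ATP5SL (-0.06), NDUFA4L2 (+0.12) and NDUFA4 (+0.06), the last a protein that purifies with complex IV despite its name, did not pass.

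Within single genotypes few members were called for age with limma. In LW they were the 2 probes of COX7A2L, both lower (5.32% of all probes were called, 2.46% higher and 2.86% lower), with a brightest-probe change of -0.95 (adjusted p = 0.00246). This split depended on scaling, since 9 probes were higher and 2 lower in LW in the authors' matrix (5.47% of members, against 6.77% of all probes). With quantile normalization the split was 7 and 2 (4.43% against 5.77%). In LWMS the 1 call was a COX6B1 probe (+0.61, adjusted p = 0.00984, background 11.1%, 4.78% higher and 6.34% lower). In MSLW the 3 calls were CYC1 (+0.59, adjusted p = 0.00442), a probe of NDUFB9 (+0.77, adjusted p = 0.00909) and ATP5G1 (+0.71, adjusted p = 0.00758), all higher, against a background of 5.7% (2.53% higher). In MS no member was called (background 3.25%, 1.76% higher and 1.49% lower), 2 had an unadjusted p under 0.05, and array weights gave 16 (7.88%, against 11.9% of all probes). The medians over the members were +0.07, +0.05, +0.18 and +0.31 in LW, MS, LWMS and MSLW. Without the 5 arrays that stood apart they were +0.13, +0.17, +0.17 and +0.39. In MS the median was +0.39 with array weights and +0.01 with quantile normalization. Leaving out 1 array moved the counts of called probes within 1 to 2, 0 to 0, 0 to 4 and 0 to 5.

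Whether genotypes differed in their change with age was tested itself. The interaction was called in 0 of 203 member probes with limma, 1 had an unadjusted p under 0.05, and no alternative called any, while among all probes 9 (0.0222%) were called. The smallest p-values were those of dim probes of SDHD (adjusted p = 0.56), NDUFB8 (0.7 and 0.79), COX6A1 (0.73) and NDUFA4L2 (0.82). The different numbers of calls per genotype therefore do not show that the genotypes differed. The F test of any difference between the 8 groups called 21 of 203 member probes against 28.8% of all probes.

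Between the pure breeds, few members were called, and where a difference was called it rested on 1 probe of a gene. At day 90, 1 probe was higher and 2 lower in MS (adjusted p of at most 0.01 with limma, background 3.67%, of which 1.36% higher and 2.31% lower), and at day 110 none was higher and 2 were lower (background 5.28%, of which 2.04% higher and 3.24% lower). At day 110 the direction of the calls turned with the weighting of arrays, with 8 higher and 1 lower under array weights (4.43% of members, against 17.6% of all probes). Without the 5 arrays that stood apart 2 were higher and 2 lower (1.97% against 6.76%). The medians over members were +0.10 at day 90 and +0.07 at day 110. Without the 5 arrays that stood apart they were +0.21 and +0.26. At day 110 the median was +0.34 with array weights and -0.05 with quantile normalization. All 4 genes concerned (ATP5B, UQCRC2, SDHD and UQCRB) had several probes, of which only 1 was called at an age. Without fetus 532 (MS, day 90) 1 probe was called at day 90.

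ATP5B, the catalytic beta subunit of ATP synthase, carried the largest difference. Its probe O14585 ran from 4.15 through 4.67 to 5.31 in LW and from 2.995 through 3.17 to 3.56 in MS at day 90, so that the breeds did not overlap. At day 110 it ran from 3.94 through 4.97 to 5.38 in LW and from 1.90 through 3.53 to 4.47 in MS, with an overlap. The difference between MS and LW was -1.52 (SE 0.228, adjusted p = 2.12e-06 with limma) at day 90 and -1.29 (SE 0.218, adjusted p = 2.1e-05) at day 110. The crosses lay between the pure breeds at day 90 with medians of 4.13 in LWMS and 3.93 in MSLW. The other 9 ATP5B probes differed by -0.15 to +0.08 at day 90 and by -0.11 to +0.01 at day 110, and none was called. Set against the mean of those 9 on the same array, O14585 was lower in MS by 1.48 at day 90 and by 1.25 at day 110, which is a description, since the probe was picked for this contrast. Its sequence is shown with that of a probe of the gene that did not differ (A_72_P538358, +0.01 at day 90), and O14585 overlaps with none of the other 9 over 20 or more bases.
ATP5B (O14585): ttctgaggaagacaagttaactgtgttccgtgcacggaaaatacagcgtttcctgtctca
ATP5B (A_72_P538358): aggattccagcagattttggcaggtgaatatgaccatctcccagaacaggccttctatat
What sets this probe apart from the others of its gene was not tested.

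UQCRB, a small subunit of complex III that lies at the ubiquinone site, showed the same kind of disagreement. Probe O2995 ran from 1.12 through 2.25 to 3.46 in LW and from 0.86 through 1.24 to 1.39 in MS at day 90, and from 1.58 through 2.35 to 3.16 and from 0.46 through 1.69 to 2.19 at day 110. The ranges overlapped, and MS was lower by 1.05 (SE 0.3, adjusted p = 0.0191, not past the threshold) and by 1.06 (SE 0.287, adjusted p = 0.00912 with limma). The other 7 probes differed by -0.02 to +0.06 at day 90 and by -0.06 to +0.11 at day 110 and none was called. Against their mean on the same array, O2995 was lower in MS by 1.07 and 1.11, again as a description. The call at day 110 held in 6 of 10 alternatives.
UQCRB (O2995): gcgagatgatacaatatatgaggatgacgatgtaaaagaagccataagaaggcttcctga
This probe overlapped with none of the other 7.

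The probe of SDHD that was called, A_72_P440211, ran from 0.68 through 2.11 to 3.10 in LW and from 2.65 through 2.94 to 3.37 in MS at day 90. It was higher in MS by 0.98 (SE 0.247, adjusted p = 0.00656 with limma) at day 90 and by 0.62 (adjusted p = 0.0826) at day 110. Of the other 8 SDHD probes none was called at either age, and they differed by -0.06 to +0.65 at day 90 and by +0.04 to +0.26 at day 110. The largest of these at day 90, +0.65, was that of the dim probe O9140, well above background on 12 of 32 arrays at that age. UQCRC2, a core protein of complex III, ran from 2.75 through 3.13 to 4.14 in LW and from 1.93 through 2.06 to 2.55 in MS at day 90 with probe O9206, without overlap. Its differences were -1.05 (SE 0.249, adjusted p = 0.00344) and, at day 110, -0.75 (adjusted p = 0.0309), while its other probe differed by -0.36 and -0.18 and was not called.

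**Figure D4:**
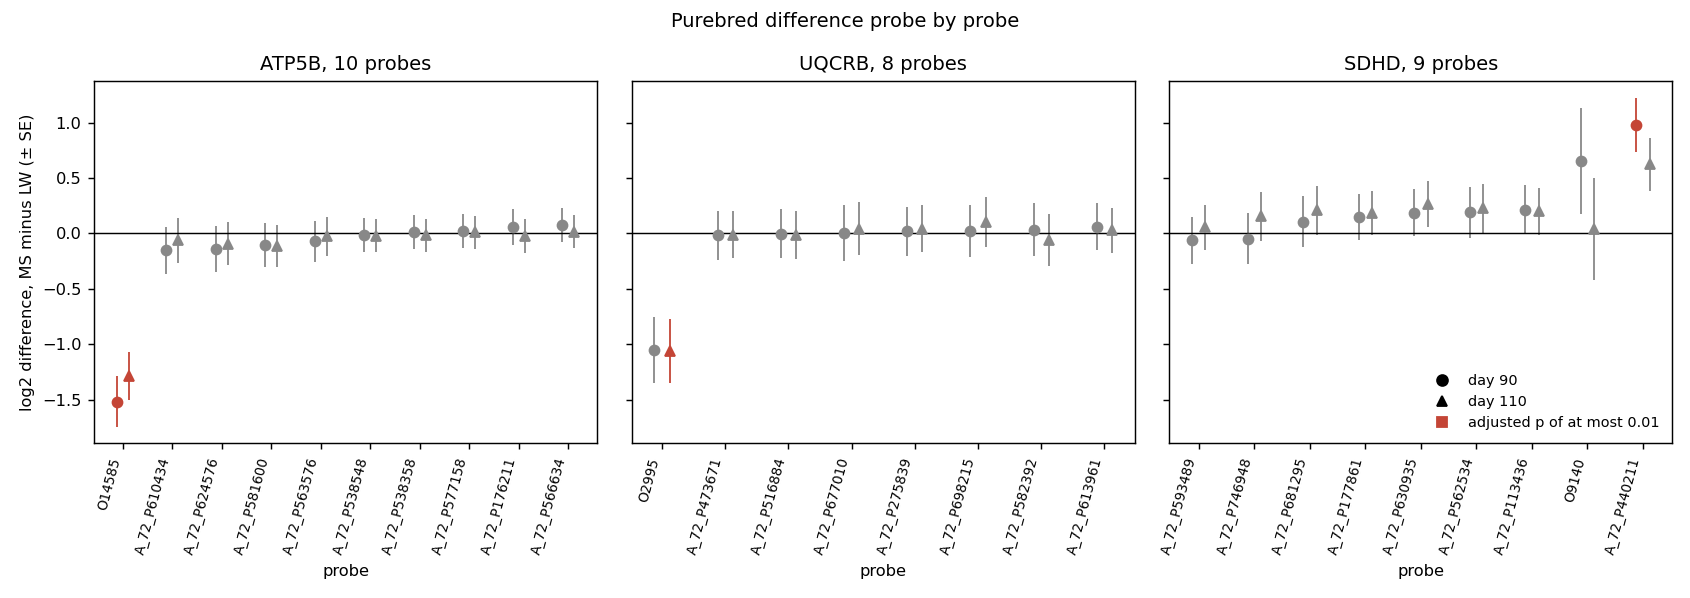
Log2 difference between MS and LW ± SE (vertical axis) for each tested probe of ATP5B, UQCRB and SDHD (horizontal axis), at day 90 (circles) and day 110 (triangles). Red marks a limma adjusted p of at most 0.01. In ATP5B and UQCRB 1 probe lies below -1 at both ages and all others between -0.15 and +0.11.

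The design separates the breed of the sow from that of the sire, since both crosses were measured. By breed of the sire (MS minus LW, mean over sow breeds and ages, adjusted p under 0.05), 5 of 203 member probes were lower with an MS sire and none was higher, against a background of 6.97% (3.87% lower). With quantile normalization 1 was higher and 7 were lower (3.94% of members, against 6.57% of all probes), and with array weights 4 and 6 (4.93% against 15.5%). Over 61 fetuses without 484 and 469 the counts were 2 and 4 (2.96% against 8.77%), and without the 5 arrays that stood apart 3 and 4 (3.45% against 9.06%). The 5 were UQCRB O2995 (-0.91, SE 0.145, adjusted p = 7.1e-06), ATP5B O14585 (-0.77, SE 0.111, adjusted p = 8.34e-07), both probes of UQCRC2 (-0.63, adjusted p = 0.000185, and -0.34, adjusted p = 0.0415) and COX5A (-0.58, SE 0.121, adjusted p = 0.00064). The differences of UQCRB, ATP5B and COX5A were negative within 8 of 8 slides. COX5A, whose only probe this is, had medians of 4.29 in LW, 3.79 in MS, 4.21 in LWMS and 4.07 in MSLW at day 90 and of 4.92, 4.14, 5.02 and 4.23 at day 110, and its ranges overlapped in all groups of 1 age. The median over members was -0.06, and +0.03 without the 5 arrays that stood apart.

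By breed of the sow, 4 member probes were higher and 3 lower with an MS sow, against 15.9% of all probes called (7.07% higher and 8.84% lower), and 40 had an unadjusted p under 0.05. The median over members was +0.15 and that of all probes +0.02, and 190 of the 203 differences were positive. This gap was smaller with quantile normalization, where the medians were +0.05 and +0.04, and in the authors' matrix, where they were +0.05 and +0.01. The count and its split moved with scaling and with single arrays. There were 21 higher and 2 lower with median centring (11.3% of members, against 15.3% of all probes), 28 and 3 over 61 fetuses without 484 and 469 (15.3% against 19.7%), 39 and 3 without the 5 arrays that stood apart (20.7% against 24.1%), and 83 and 3 with array weights (42.4% against 32.6%). The members' share was thus below that of all probes except with array weights. Without fetus 484, 632 or 476 (MSLW, day 110) alone, 20, 20 and 18 probes were called. Quantile normalization called 7 of the 203 probes, 3 higher and 4 lower (3.45%, against 12.5% of all probes). Sow breed and litter cannot be told apart here.

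COX7B, a subunit of complex IV with 1 probe and a gene on the X chromosome of mammals, followed the sow. Male fetuses have their X chromosome from the sow. At day 90 its level ran from 4.74 through 5.12 to 6.47 in LW and from 4.70 through 5.12 to 5.55 in MSLW, both from LW sows. It ran from 4.00 through 4.33 to 4.76 in MS and from 3.49 through 4.35 to 5.02 in LWMS, both from MS sows. At day 110 the medians were 5.18 and 5.60 with LW sows and 4.74 and 4.66 with MS sows, and at both ages the groups overlapped at their edges. COX7B was lower with an MS sow by 0.83 on the log2 scale (difference -0.83, SE 0.118, adjusted p = 3.46e-07 with limma), in 8 of 8 slides and under all 10 alternatives. By sire it differed by -0.02 (adjusted p = 0.96). The 2 other X-linked members, NDUFA1 and NDUFB11, had sow differences of -0.07 and -0.05 in their brightest probes, and neither was called. The cause of the COX7B difference was not tested, and for this gene too sow breed and litter cannot be told apart.

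The other sow calls were ATP5B O14585 (-0.64, SE 0.111, adjusted p = 2.19e-05), SDHD A_72_P440211 (+0.54, SE 0.12, adjusted p = 0.000875), 1 probe of ATP5E, the epsilon subunit of F1 (-0.34, adjusted p = 0.00255), 2 of 4 probes of NDUFB9 (+0.35 and +0.31, adjusted p = 0.0122 and 0.0239) and 1 of COX7C (+0.39, adjusted p = 0.0496). For ATP5E the other 2 probes pointed the other way, at +0.19 and +0.21, without being called. O14585 was thus called by both parents, and O2995 and O9206 by the sire alone, but the difference between the sow and sire effects was not tested.

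**Figure D5:**
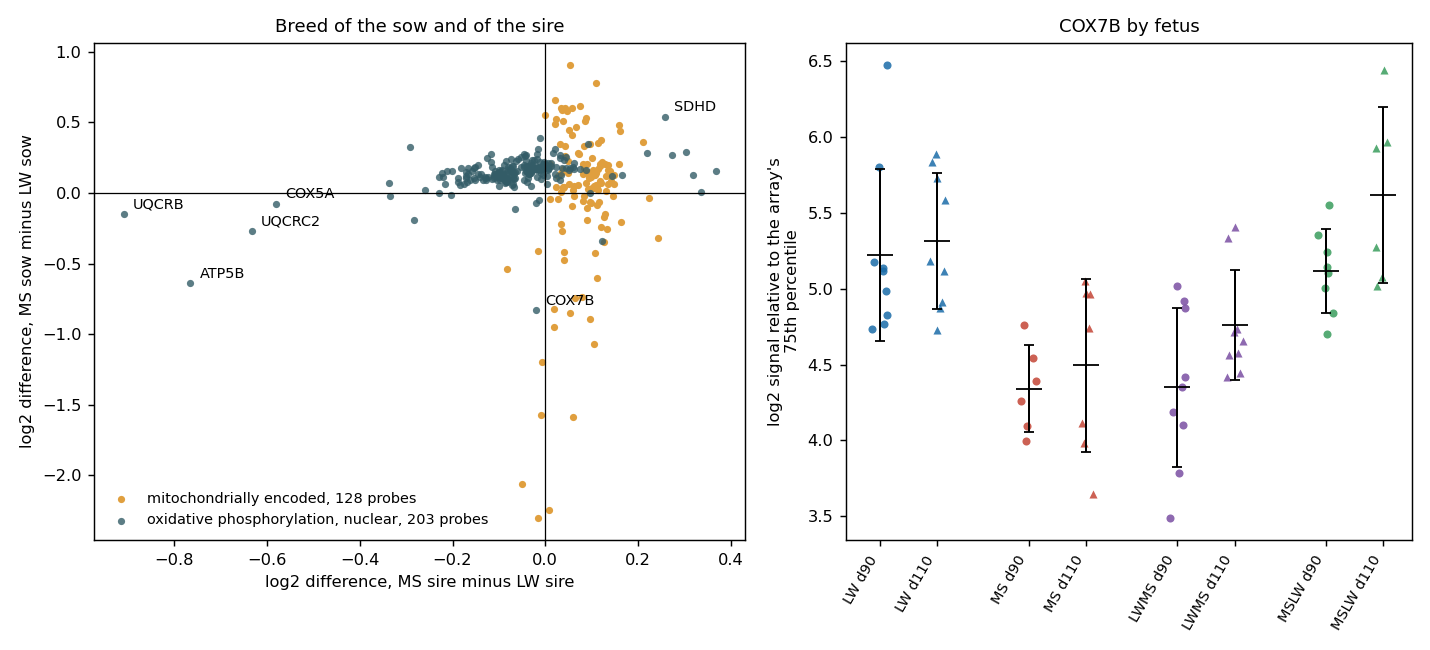
Left, log2 difference by breed of the sire (MS minus LW, horizontal axis) and by breed of the sow (vertical axis) for the 203 nuclear member probes and the 128 mitochondrially encoded probes. Right, COX7B level by fetus (log2 signal relative to the array's 75th percentile, bars mean ± SD, circles day 90, triangles day 110). Mitochondrially encoded probes spread along the vertical axis from -2.30 to 0.91 and stay near 0 on the horizontal one, while ATP5B, UQCRB, UQCRC2 and COX5A lie to the left.

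The mitochondrially encoded subunits, which the naming rule leaves out, had 128 tested probes of 13 genes. By breed of the sow 65 of them were called (50.8%, against 15.9% of all probes), 40 higher and 25 lower with an MS sow, and by breed of the sire 0 were called with limma, against 6.97% (3 with quantile normalization and 8 with array weights). The sow count lay between 55 and 74 under the alternatives other than a minimum fold, with which it was 29, and the split was 25 higher and 36 lower with quantile normalization and 51 and 19 with median centring. Of the 13 genes 9 had a called probe, and 5 of these had probes called both ways. ND4 had 10 of 11 probes higher. For ND2, a subunit of complex I, probe A_72_P719508 was lower with an MS sow (difference -2.30, SE 0.186, adjusted p = 6.42e-15 with limma), whereas the brightest ND2 probe differed by +0.03. ND1 had 1 probe at -2.07 (A_72_P745561) and another at +0.91 (A_72_P758032). In these 5 genes the direction thus differed between probes of 1 gene.

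A pair of overlapping probes of COX2, the copper-binding subunit of complex IV, shows how close such probes can lie. Probe A_72_P746371 had medians of 6.33 in LW, 6.46 in MSLW, 4.42 in MS and 5.10 in LWMS at day 90, and of 6.36, 6.49, 5.44 and 5.47 at day 110. Fetuses of MS sows did not overlap with those of LW sows at either age. It differed by -1.59 between sow breeds (SE 0.168, adjusted p = 1e-10), while A_72_P751248 differed by +0.06 (adjusted p = 0.572). The probes share 48 bases, of which 1 differs, in capitals.
COX2 (A_72_P746371): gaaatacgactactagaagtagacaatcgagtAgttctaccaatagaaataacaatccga
COX2 (A_72_P751248): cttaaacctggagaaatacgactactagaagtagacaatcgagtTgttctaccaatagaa
Whether the fetuses carry either base was not tested.

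With age, 8 of 128 mitochondrially encoded probes were lower and none higher (6.25%, against 28.5% of all probes tested). They were 5 of CYTB and 3 of ND3 (brightest ND3 probe -0.26, adjusted p = 0.00588 with limma, past the threshold in 6 of 10 alternatives). Quantile normalization called 10 higher and 5 lower. The brightest probes of ATP8 (+0.16) and ND2 (-0.12) did not pass. Of 6 further nuclear subunits or carriers outside the naming rule, CYCS, cytochrome c, ran from 2.75 through 3.47 to 4.70 at day 90 and from 2.96 through 4.44 to 5.13 at day 110 and rose by 0.66 (SE 0.12, adjusted p = 9.95e-06 with limma). COX4I2, the less common form of COX subunit 4, fell by 0.30 (adjusted p = 0.00923), a call that held in 1 of 10 alternatives, and USMG5 differed by +0.30 (adjusted p = 0.0563). Over all 22 probes of these 6 genes 12 were called, 11 higher and 1 lower, in 2 genes (54.5%, against 28.5% of all probes tested). Of 17 assembly factors tested, 1 was called by its brightest probe, COX17, a copper chaperone of complex IV, which rose (+0.35, adjusted p = 0.00581). SDHAF1 (+0.27, adjusted p = 0.0161) and BCS1L (-0.20, adjusted p = 0.0441) did not pass. Over all 30 probes of the assembly factors 7 were called, 4 higher and 3 lower, in 3 genes (23.3%, against 28.5% of all probes tested).

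Of 8 regulators of mitochondrial genes, 2 rose with age and none fell (14.3% of their 14 probes called, against 28.5% of all probes tested). PPARGC1A, the coactivator PGC-1 alpha, ran from -0.07 through 0.87 to 1.57 at day 90 and from 1.11 through 1.89 to 2.54 at day 110. Its rise of 1.05 (SE 0.0857, adjusted p = 1.8e-15) was called in each of the 4 genotypes (+0.77, +1.27, +1.09 and +1.08 in LW, MS, LWMS and MSLW). ESRRA, the nuclear receptor that PPARGC1A acts with, rose by 0.47 (SE 0.0995, adjusted p = 0.000132), and TFAM, which packages mitochondrial DNA, differed by -0.13 (adjusted p = 0.0421). Of 16 genes of pyruvate dehydrogenase and the citric acid cycle, 5 rose and none fell: PDHA1 (+0.73, adjusted p = 3.29e-08), IDH3A (+0.46, adjusted p = 1.5e-07), SUCLA2 (+0.36, adjusted p = 4.52e-06), MDH2 (+0.52) and DLST (+0.41). Among the 59 probes of these genes 28.8% were called, near the 28.5% of all probes tested.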

How the data were processed

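Jejunum RNA of 63 fetuses was measured on one-colour 8-array slides, 7 or 8 arrays on each of 8 slides. For every array the authors deposited a scanner file, made with Agilent Feature Extraction 10.10.1.1 per the submitters' processing notes, in which each spot has a raw and a background-corrected intensity on a linear scale. They also deposited a matrix of log2 values of 39446 probes, 201 of them members, with column medians of 8.61. By comparison with the scanner values, that matrix holds quantile normalized log2 median spot intensities (lowest correlation 1), and it was used as an alternative only.

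From each array of 61625 spots, 1319 control spots were left out, outlier spots were set to missing (2775 tested probes lack a value), spots of 1 probe were averaged, and the log2 of the corrected intensity was taken minus the array's 75th percentile. No spot was saturated and no arrays were identical (highest correlation 0.991). Background subtraction makes differences of dim probes uncertain, and the number of arrays limits the precision. Means of the 8 groups were fitted to 40515 probes with limma 3.58.1 in R 4.3.3 over all 63 arrays, with two-sided p-values adjusted by the Benjamini-Hochberg method over all probes tested. Calls took an adjusted p of at most 0.01 for age, pure breeds and interaction, under 0.01 for the F test and under 0.05 for parents. The interaction threshold is not one of the study. The study took differentially expressed probes at an adjusted p under 0.01. It set a minimum log2 difference of 0.5 between the ages for its enrichment and pathway analyses, and this minimum is an alternative here. The sow, a random effect in the study's model, was not used here.

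Alternatives were the authors' matrix, normexp (offset 50), quantile normalization, centring on the median, testing dim probes too, the slide as a block, array weights, 61 fetuses without 484 and 469 and a minimum log2 difference of 0.5. Leaving out 5 arrays that stand apart (a share well above background under 55% or over 80%, or a weight under 0.25), leaving out each array, and differences between probes of 1 array were added after the data had been seen. The steps were tested on simulated data. The simulated noise was independent between probes and arrays, without a shared shift, arrays of low weight or litters. The simulation therefore cannot show how these affect the calls.

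The members and gene lists were chosen with earlier results of these data known. Named are all complex II genes, in each other complex the 3 called genes with the largest rise and fall with age, the 5 probes with the smallest p in each breed, parent and interaction comparison, tissue isoforms, ATP5G1 to ATP5G3, name matches that are no fixed subunits, and the 3 genes of each related list with the smallest p for age. Other called members and markers were named after their values were seen. Probe names are those of the array files, probe sequences come from the same files, and protein and transcript sequences were not used here.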

Additional observations from a re-analysis of the deposited data

Results flagged for a closer look

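Of the 120 sets of 1 item and 1 group of fetuses, 4 had an extreme fetus far from the nearest other one by Dixon's test at the 95% level. Chance gives about 1 in 20 such sets. Fetus 632 (MS, day 110), the array with the lowest weight, gave 3 of these 4. In it ATP5G1 was at 5.74, against 6.29 in the nearest other MS fetus of day 110, COX7A2L was at 3.11 against 4.26, and the shared shift of the members was -0.64 against 0.01. The other was the SDHD probe A_72_P440211 in fetus 476 (MSLW, day 110), at 3.52 against 2.50 in the nearest fetus of its group.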

How the results depend on the processing

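The alternatives were run on 56 probe results, which leave out the probes named for the interaction, and the direction of each held except that of ATP8, whose difference with age was +0.16, and -0.0516 in the authors' matrix. Over these results and settings, 478 values kept their side of the threshold, 45 lost it, 36 gained it and 1 changed sign. The cause of these moves was not tested unless the setting itself removes fetuses or calls. Counts of member probes called were less stable. In the authors' matrix they were 61 for age (mean of the genotypes), 11 for age in LW, 8 in LWMS, 14 in MSLW, 5 and 7 for MS against LW at day 90 and day 110, 8 for the sire and 41 for any difference. Of all probes, 30.2, 6.77, 11.9, 6.89, 3.98, 5.55, 7.42 and 30.9% were called there for these comparisons. With quantile normalization the member counts were 58, 9, 8, 12, 5, 6, 8 and 38 for the same comparisons (27.3, 5.77, 9.58, 6.05, 3.39, 4.47, 6.57 and 26.7% of all probes). With array weights they were 113 for age, 16 for age in MS, 18 in LWMS, 10 in MSLW, 6 and 9 for the pure breeds, 86 for the sow, 10 for the sire and 134 for any difference, but array weights raised calls among all probes too, to 38.6% for age, 11.9% in MS, 18.5% in LWMS, 7.96% and 17.6% for the pure breeds, 32.6% for the sow, 15.5% for the sire and 55.6% for any difference. With median centring the member counts were 0 for age in LW, 0 in LWMS, 1 in MSLW, 1 and 1 for the pure breeds and 23 for the sow (2.59, 6.34, 2.7, 2.56, 3.3 and 15.3% of all probes). Normexp gave 2 for age in LWMS and 1 for the pure breeds at day 110 (10.4 and 4.35% of all probes). No filter on dim probes gave 0 in LWMS, 1 in MSLW and 1 for the pure breeds at day 110 (6.38, 3.05 and 3.11% of all probes). The slide as a block gave 5 in MSLW and 14 for the sow. Over 61 fetuses the counts were 1 for age in LW, 2 in LWMS, 6 in MSLW and 31 for the sow (4.01, 12.1, 6.45 and 19.7% of all probes). A minimum log2 difference left 5 for age and 3 for the sow (13.7 and 5.52% of all probes). Without the 5 arrays that stand apart the member counts were 53 for age, 1 in LW, 2 in LWMS, 8 in MSLW, 4 for the pure breeds at day 110 and 42 for the sow (30.8, 5.24, 12.3, 7.24, 6.76 and 24.1% of all probes). The interaction stayed at 0 under all alternatives. Leaving out 1 array at a time gave 17 to 43 for age (43 without fetus 484, 40 without 632), 1 to 2 in LW, 0 to 0 in MS, 0 to 4 in LWMS, 0 to 5 in MSLW, 1 to 3 at day 90 (1 without fetus 532), 1 to 3 at day 110, 6 to 20 for the sow (20 without 484, 20 without 632, 18 without 476), 4 to 5 for the sire, 0 to 0 for the interaction and 16 to 22 for any difference. Median centring moved the median of all probes from 0.02 to 0.13 for the sow and from 0.02 to 0.15 for the pure breeds at day 110, and that of the members from 0.15 to 0.26 and from 0.07 to 0.19. No paired analysis was possible, because each fetus was measured once and the labels do not give the sow that litter mates share. Signal over background limits NDUFB1, UQCRFS1, NDUFA6 and the dim SDHD, NDUFB8 and NDUFA4L2 probes, whose differences lie close to the floor of the arrays.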
